A study of Rattus norvegicus with 10 samples.

Results

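Hras, Mras and Shc1 are genes of the pathway by which growth factor receptors signal through Ras. The rows of the deposited RNA-seq table that carry these gene names were taken, 3 of 3334 rows in all. Hras and Mras encode small GTPases of the Ras family, which are switched on by exchange factors and off by GTPase-activating proteins, and Shc1 encodes an adaptor protein that binds phosphorylated receptors and recruits Grb2 and the exchange factor Sos. In the lens, fibroblast growth factor signalling through Ras and the ERK kinases is known for its part in epithelial cell survival and in the differentiation of epithelial cells into fibre cells.

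The samples were lens capsules, the membrane around the lens with its attached epithelial cells, of male Sprague-Dawley (SD) rats aged 6 weeks. Each sample combined the 2 capsules of 1 rat. In the Hypothermia Group (n = 5) the isolated lenses were held for 8 h in Hibernate-A medium at 4°C. Normal Group capsules (n = 5) were taken directly after death, so that temperature, medium and time outside the animal cannot be told apart. The 3334 genes of the table are a list of genes selected by the outcome, that is for a change between these same samples, so that a difference was to be expected for every gene in it and the size of a change can be compared only with other changed genes.

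Hypothermia rats had 9026144 to 12415121 counts on the listed genes and Normal rats 4792595 to 8177803, which are parts of the libraries. Counts were divided by the size factors of the authors, which lay between 0.744 and 0.980 for Hypothermia rats and between 1.08 and 1.26 for Normal rats. Hypothermia replicate 5 had the lowest size factor and the highest sum. Of 23 marker genes of lens fibre cells, 20 were in the table and all 20 were called higher in the Hypothermia Group, where they took between 36.6% and 46.1% of the listed counts, against between 9.61% and 30.4% in the Normal Group. Of 11 markers of lens epithelium, Gja1, Pax6, Dkk3 and Pitx3 were in the table, with 1 called higher and 1 lower, beside 52.3% and 20.5% of all tested genes. The summed normalized count of these epithelial markers was 56073 to 75971 in Hypothermia rats and 54250 to 67186 in Normal rats. Markers of other cells were few: of retina and its pigment epithelium 4 of 12 were in the table (summed normalized count 147 to 208 in Hypothermia and 255 to 385 in Normal rats), of endothelium 2 of 5 (311 to 411 and 395 to 653), of ciliary body and iris 1 of 7 (36.7 to 239 and 86.7 to 1301), of fibroblasts 1 of 6 (13.8 to 63.9 and 35.2 to 534) and of blood and immune cells 0 of 9. Their part in the results was not tested. In such bulk samples, fewer cells of a type and less RNA per cell cannot be told apart.

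At the RNA level the GTPase genes Hras and Mras in each Hypothermia rat exceeded their level in each Normal rat, by 1.92-fold and 1.87-fold in the mean normalized count. Such a separation, with the Hypothermia Group higher, held for 41.9% of the tested genes. Shc1 was 1.28-fold higher in the mean, with overlap between the groups, and did not pass the test. Means are given ± SD over the 5 rats of a group and fitted log2 differences ± SE. To be called, a gene needed an adjusted p below 0.05 in the quasi-likelihood test of edgeR together with a log2FoldChange beyond 0.25 in either direction. By this rule 2 of the 3 genes were called higher, beside 52.3% of the 3222 tested genes of the table that were called higher and 20.5% that were called lower. All 3 passed the filter on low counts. None of the 3 reached a log2 fold change of 1.

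Hras (chromosome 1 of Rnor_6.0, 214178407 to 214181686, minus strand, protein coding) encodes H-Ras, a farnesylated GTPase of the plasma membrane that activates Raf kinases and phosphoinositide 3-kinase. RefSeq's sequence of the 250 bases before the Hras start site (chr1:205729255-205729504 of GRCr8, minus strand) is shown because it sets Hras apart from the other 2 genes in its number of GC boxes. The capitals mark GGGCGG (the GC box) and CCAAT on either strand, and no match overlapped another.
Hras: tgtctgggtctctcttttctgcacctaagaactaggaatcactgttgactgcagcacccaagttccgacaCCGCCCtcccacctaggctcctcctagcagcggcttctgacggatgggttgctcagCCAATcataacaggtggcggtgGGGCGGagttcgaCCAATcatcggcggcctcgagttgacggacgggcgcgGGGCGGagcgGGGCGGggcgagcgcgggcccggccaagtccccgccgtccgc
It held 4 GC boxes and 2 CCAAT boxes. Of 33469 RefSeq promoter windows of the same length, 30.5% held at least 1 GC box and 34.0% at least 1 CCAAT box, and the share with 4 GC boxes is not given. G and C made up 65.6% of the Hras window, 59.6% and 62.8% of the Mras windows and 55.2% of that of Shc1. The heat shock element (alternating GAA and TTC units), searched in the same way, is in 0.663% of the 33469 windows and in none shown here. A match of letters is a description of the sequence and not a site of binding.

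The normalized counts of Hras were 756, 708, 988, 695 and 1106 in Hypothermia replicates 1 to 5. In Normal replicates 1 to 5 they were 587, 487, 356, 324 and 465. The lowest Hypothermia rat thus lay above the highest Normal rat, as for 41.9% of the tested genes of the table, and Normal replicate 1 and Hypothermia replicates 2 and 4 lay nearest to the gap. The group means were 850.5 ± 185 and 444 ± 106, and the fitted log2FoldChange was 0.94 ± 0.18 (SE), with a Benjamini-Hochberg adjusted p of 0.00900 by edgeR. Between 405 and 823 reads lay behind each value, and at 405 reads counting alone gives a coefficient of variation of 4.97%, against 21.8% and 23.9% between the rats of the 2 groups. Leaving out 1 rat at a time kept the call in 10 of 10 fits. Without Hypothermia replicate 5, the highest rat, the log2FoldChange was 0.83.

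Mras (chromosome 8 of Rnor_6.0, 107629028 to 107681512, minus strand, protein coding) encodes M-Ras, which together with Shoc2 and a catalytic subunit of protein phosphatase 1 forms a complex that activates Raf. RefSeq gives 2 start sites with overlapping windows, and the first of them (chr8:108876148-108876397 of GRCr8, minus strand) is shown for comparison with Hras, with the same letters in capitals.
Mras: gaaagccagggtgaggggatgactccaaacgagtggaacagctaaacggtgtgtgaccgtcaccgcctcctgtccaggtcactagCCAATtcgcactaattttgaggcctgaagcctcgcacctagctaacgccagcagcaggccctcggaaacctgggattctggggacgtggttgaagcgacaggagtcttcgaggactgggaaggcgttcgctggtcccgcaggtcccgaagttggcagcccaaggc
This window held 0 GC boxes and 1 CCAAT box, and that of the other start site 1 GC box and 0 CCAAT boxes.

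Mras had normalized counts of 2539, 1861, 3408, 2153 and 2455 in Hypothermia replicates 1 to 5. Those of Normal replicates 1 to 5 were 1737, 1471, 993, 1084 and 1345. The groups did not overlap, as for 41.9% of the tested genes, and Hypothermia replicate 2 and Normal replicate 1 were close to each other. The means were 2483 ± 582 and 1326 ± 300.0, and the fitted log2FoldChange was 0.91 ± 0.18 (SE), with an adjusted p of 0.00959 by edgeR. Mras was called in 10 of 10 fits that left out 1 rat. Its highest rat was Hypothermia replicate 3, without which the log2FoldChange was 0.76.

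Shc1 (chromosome 2 of Rnor_6.0, 188745503 to 188757066, plus strand, protein coding) encodes several forms of the Shc adaptor from 1 gene, and the counts, being per gene, do not separate them. RefSeq's window of the same length before its start site (chr2:177138298-177138547 of GRCr8, plus strand) held 1 GC box and 2 CCAAT boxes, in capitals, and completes the comparison.
Shc1: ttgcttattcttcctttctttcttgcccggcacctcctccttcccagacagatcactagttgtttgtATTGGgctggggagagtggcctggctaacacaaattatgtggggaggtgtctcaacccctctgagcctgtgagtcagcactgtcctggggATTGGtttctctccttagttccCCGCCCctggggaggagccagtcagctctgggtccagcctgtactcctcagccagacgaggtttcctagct
RefSeq also lists a pseudogene, Shc1-ps1, and whether reads were shared with it was not tested.

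The normalized counts of Shc1 were 1387, 1205, 1371, 1299 and 1831 in Hypothermia replicates 1 to 5 and 1234, 1164, 1053, 1006 and 1081 in Normal replicates 1 to 5. Hypothermia replicate 2 lay below Normal replicate 1, and Hypothermia replicate 5 stood above the other rats of its group. The means were 1419 ± 241 and 1108 ± 91.1, with a log2FoldChange of 0.36 ± 0.11 (SE), and the gene was not called (adjusted p = 0.0556 from edgeR). Taken alone, with no adjustment, the log2 values differed by an exact permutation test over all assignments of rats to groups (two-sided p = 0.0159). Shc1 was called without Hypothermia replicate 2 (adjusted p = 0.0344 from edgeR) and without Normal replicate 1 (adjusted p = 0.0443 from edgeR), and in none of the other 8 fits that left out 1 rat, where the adjusted p was up to 0.137. Without Hypothermia replicate 5 its log2FoldChange was 0.25. Before division by the size factors, Shc1 had 1092 to 1363 reads in Hypothermia rats and 1181 to 1423 in Normal rats.

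**Figure D1:**
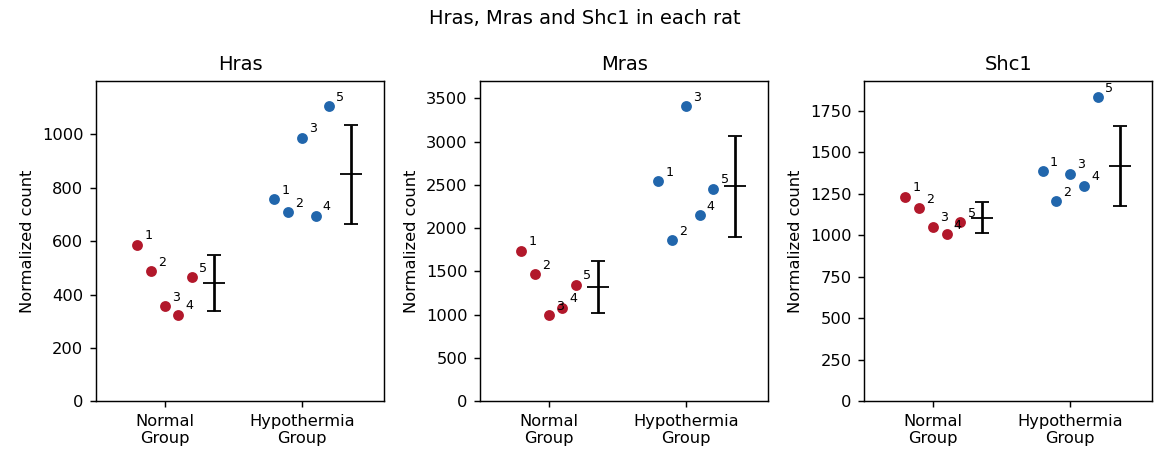
Normalized counts (counts divided by the authors' size factors, vertical axes from 0) of Hras, Mras and Shc1, with 1 numbered point per rat and the mean ± SD (n = 5) beside each group. For Hras all Hypothermia rats (695 or more) lie above all Normal rats (587 or less), the groups of Mras are also separate, and those of Shc1 overlap.

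Per length of gene, the 3 genes overlapped in level in the Normal Group, and in the Hypothermia Group Hras and Mras had nearly equal means, above that of Shc1. The deposited FPKM (fragments scaled by gene length) carried the authors' size factors, being proportional to the normalized count over gene length. Between the groups it is therefore no measure apart from the normalized counts. The FPKM in the Normal Group had a mean of 19.5 for Hras (range 14.2 to 25.8), 19.9 for Mras (14.9 to 26.0) and 18.3 for Shc1 (16.6 to 20.4). In the Hypothermia Group it was 37.3 ± 8.14 for Hras, 37.2 ± 8.72 for Mras and 23.4 ± 3.98 for Shc1. Hras exceeded Shc1 in FPKM in 5 of 5 Hypothermia rats and in 3 of 5 Normal rats, and Mras did so in the same numbers of rats.

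The ratio of 2 genes within a rat does not depend on how the samples were scaled, so 3 ratios were compared between the groups. The FPKM ratio of Hras to Shc1 was 1.42 to 1.92 in Hypothermia rats and 0.857 to 1.27 in Normal rats, without overlap. On the log2 scale the count ratio differed by 0.60 (95% interval 0.31 to 0.91), and the exact two-sided permutation p was 0.00794, the lowest value possible with 5 rats a group. The FPKM ratio of Mras to Shc1 was between 1.22 and 2.26 against between 0.857 and 1.28, with overlap only of Hypothermia replicate 5 and Normal replicate 1, and the log2 count ratio differed by 0.56 (95% interval 0.14 to 0.97, exact two-sided permutation p = 0.0159). The ratio of Hras to Mras showed no difference beyond the spread, 0.04 on the log2 scale (95% interval -0.22 to 0.38, exact two-sided permutation p = 0.770). Adjusted over the 3 ratios by Benjamini-Hochberg, the exact permutation p-values were 0.0238, 0.0238 and 0.770. The interval for Hras to Mras still allows a difference of 0.38. The fold change of each GTPase gene was thus above that of the adaptor gene under any scaling, while which of them lay further from 0 depended on it.

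**Figure D2:**
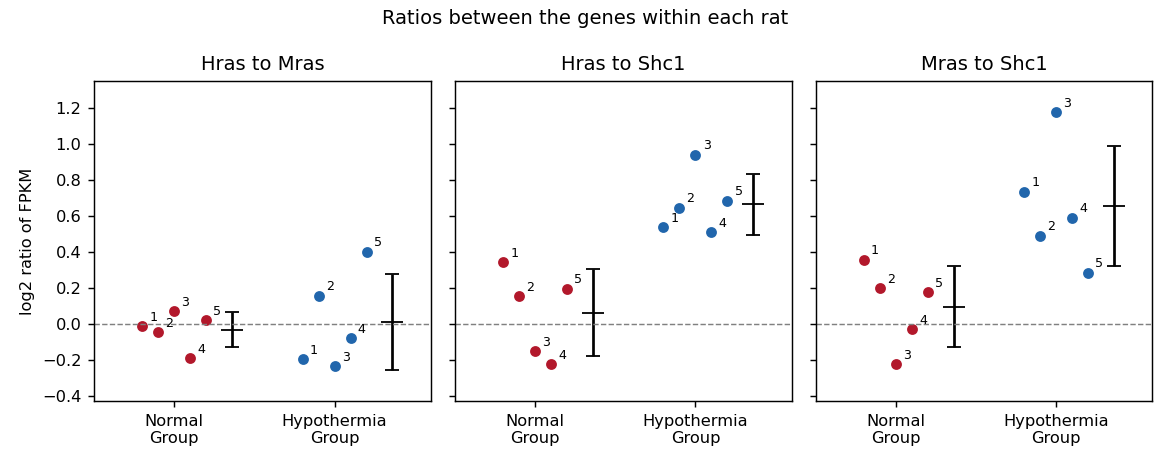
Log2 ratios of FPKM between the 3 genes (vertical axis, the dashed line marks equal FPKM), with 1 numbered point per rat and the mean ± SD (n = 5) beside each group. The ratio of Hras to Shc1 separates the groups, that of Mras to Shc1 does so except for Hypothermia replicate 5 and Normal replicate 1, and that of Hras to Mras lies around equality in both groups.

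The direction of each gene on its own did depend on the scaling. With the authors' size factors the median log2FoldChange of all 3222 tested genes was 0.36. Against this median Hras was higher by 0.58, Mras by 0.54, and Shc1 differed from it by -0.01. TMM factors computed on the listed genes moved the median to 0.07, and Hras and Mras, at 0.65 and 0.62, were still called higher (adjusted p = 0.0113 and 0.0134 from edgeR), while Shc1 was at 0.07. With the totals of the listed genes as the scaling the median fell to -0.87, Hras was at -0.29 and Mras at -0.31 without a call, and Shc1 was called lower at -0.89 (adjusted p = 0.000794 from edgeR). Of the genes called, 71.8% were higher with the size factors of the authors, 36.5% with TMM and 2.32% with the totals. TMM was computed here on genes selected for change, and it shifted the median by -0.29. Calls lost or gained with TMM, here and below, go with this shift and are no separate check of a gene. A change of scaling adds nearly the same amount to every gene, so the distance of a gene from the median could scarcely move with it. Over the 20 fits that were run, some of which share their fold changes, this distance lay between 0.48 and 0.67 for Hras. It lay between 0.43 and 0.63 for Mras and between -0.10 and 0.04 for Shc1. The log2FoldChange of Hras was greater than that of at least 85.0% of tested genes in each of these fits, and that of Mras greater than that of at least 82.8%.

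**Figure D3:**
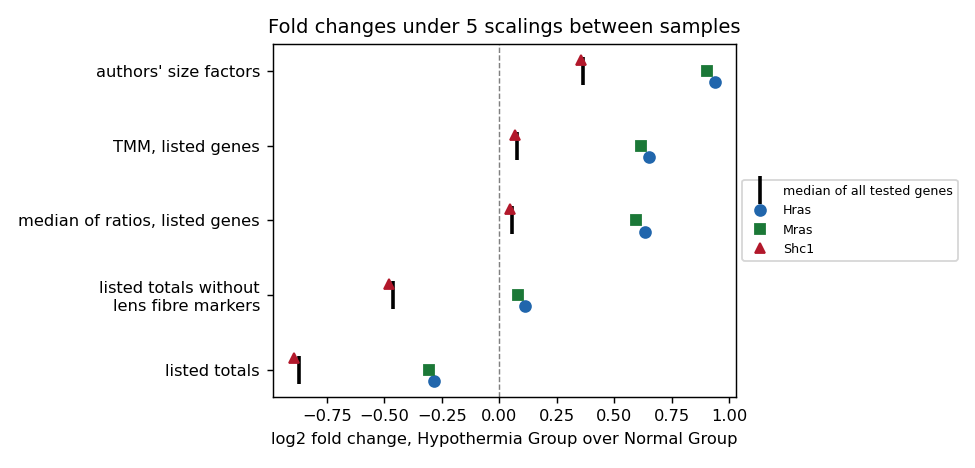
Log2 fold change of Hras, Mras and Shc1, and the median of all tested genes (vertical bars), under 5 scalings between samples (rows). The whole pattern moves from a median of 0.36 to one of -0.87. Hras and Mras stay to the right of the median by about the same distance and Shc1 stays at it, as a scaling shifts all genes nearly equally.

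Hras varied in step with Mras and with Shc1 over the rats. After each group's mean was removed, the log2 normalized counts of Hras and Mras had a Pearson's r of 0.81 over the 10 rats, those of Hras and Shc1 an r of 0.81 and those of Mras and Shc1 an r of 0.49, with Spearman's rho of 0.78, 0.82 and 0.62. All of these values share the size factor of each rat, and positive correlations were common in the table. Over 2749 genes whose normalized count averaged 100 or more, the median r was 0.45 with Hras, 0.48 with Mras and 0.33 with Shc1. The r of Mras and Shc1 thus lay near the median for Mras.

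The lens fibre markers moved with the 3 genes within the groups as well as between them. Their summed normalized count ranged from 366568 in Normal replicate 3 to 2302230 in Normal replicate 1, the lowest and the highest rats of that group also for Mras, and Normal replicate 1 was the highest for Hras and Shc1 too. In the Hypothermia Group the sum was highest in replicate 5, at 7683580, the highest rat for Hras and Shc1. Over deviations from the group means of the 10 rats, r with the fibre sum was 0.86 for Hras, 0.79 for Mras and 0.68 for Shc1, again with the size factor shared. The ratio of Hras to Shc1, which shares no size factor, had, with group means removed, an r of 0.70 (Spearman's rho 0.70) with the fibre markers' share of the listed counts, that of Mras to Shc1 an r of 0.45 and that of Hras to Mras an r of 0.09. The part of the fibre content in the changes of these genes was not tested.

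**Figure D4:**
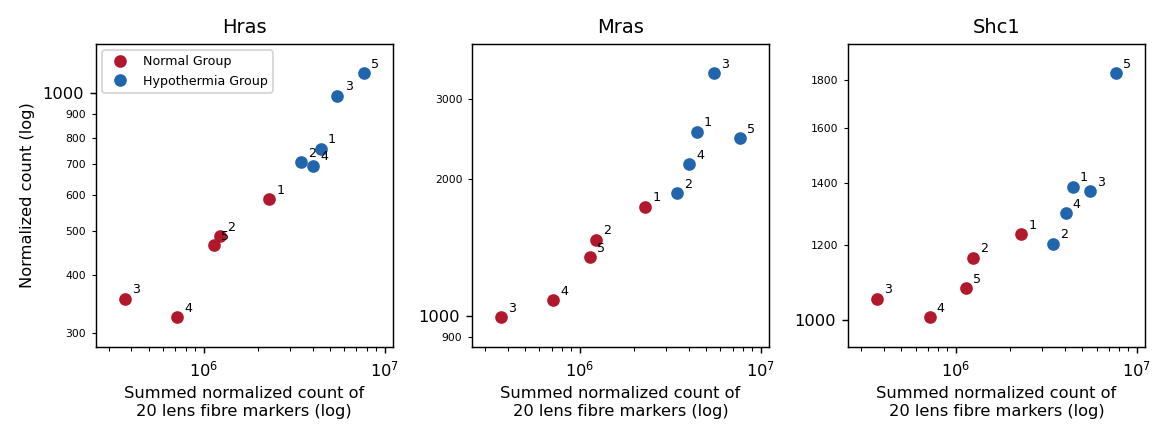
Normalized count of each gene (vertical, log scale) against the summed normalized count of 20 lens fibre markers (horizontal, log scale) in 10 rats, numbered by replicate and coloured by group. In the Normal Group Mras runs upward with the fibre sum at every step, Hras and Shc1 do so except that replicate 4 lies below replicate 3, and Normal replicate 1 has the fibre sum nearest to the Hypothermia Group.

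The 5 listed genes closest to each gene were taken by Pearson's r over the 10 rats with group means removed. They are the highest of 2749 compared, so that a high r was to be expected, and a difference between the 3 lists was not tested. For Hras they were Dad1 (r = 0.99), which encodes a subunit of the oligosaccharyltransferase, Ciao2b (0.98), a factor of cytosolic iron-sulphur protein assembly, Rangrf (0.97), Fbxw2 (0.96), an F-box protein, and Tmem11 (0.96), a mitochondrial membrane protein. For Mras they were Kpnb1 (r = 0.99), which encodes importin beta, Gdi2 (0.98), a Rab GDP dissociation inhibitor, Parvb (0.98), an actin-binding protein of focal adhesions, Mllt11 (0.98) and Wdr1 (0.98), a factor of actin filament disassembly. For Shc1 they were Panx2 (r = 0.95), which encodes a pannexin, Palm (0.95), Zfp385a (0.94), Cpsf4 (0.93), a subunit of the polyadenylation machinery, and Fggy (0.93). The median r of the genes compared was 0.48 with Mras and 0.33 with Shc1.

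The other genes of the Ras pathway were taken from a list of 176 genes in 10 roles. The table held 44 of them, of which 43 were tested, and the others were not analysed here. Of the 43, 18 were called higher (41.9%) and 16 lower (37.2%), against 52.3% and 20.5% of all tested genes. Their log2FoldChanges were above 0 for 21 and below 0 for 22, so that the median, -0.26 against 0.36 for all tested genes, was the negative value nearest to 0 and rested on 1 gene. With Hras, Mras and Shc1 included the median was 0.30. These counts hold for the authors' size factors. With TMM on the listed genes, 5 were called higher and 21 lower, beside 633 and 1100 of all 3220 tested genes. With the totals of the listed genes there were 0 and 35, beside 57 and 2398 of 3223. Without Normal replicate 5 there were 6 called lower, beside 337 of all 3236 tested genes, and without Normal replicate 4 there were 7, beside 300 of 3235. Without Hypothermia replicate 3, 4 or 5 there were 8 each, beside 321 of 3247, 392 of 3248 and 378 of 3241. With all rats 662 of 3222 tested genes were called lower, so calls were lost over the whole table.

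The Ras family GTPases in the table, apart from Hras and Mras, were 5 of 26 on the list. Of the 5, 4 were called higher, beside 52.3% of all tested genes. Rasl11b, a Ras-like GTPase, had a normalized count of 2076 ± 451 in the Hypothermia Group and 1162 ± 145 in the Normal Group, a log2FoldChange of 0.84 ± 0.15, close to those of Hras and Mras. Rap1a, which acts in integrin adhesion, rose by 0.50, Rheb, the activator of the growth kinase complex mTORC1, by 0.46 and Rras by 0.33. With TMM only Rasl11b of these kept its call, and the call of Rras was kept in 4 of 10 fits that left out 1 rat. The enzymes that prepare Ras proteins for the membrane were represented by Pde6d, a chaperone that carries farnesylated Ras, which rose from 464 ± 55.5 to 819 ± 121, and by Fnta, the farnesyltransferase alpha subunit, which rose by 0.36. With TMM Pde6d kept its call and Fnta, at 0.07, lost it, and Hypothermia replicate 5 stood above the other rats of its group for Fnta.

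Among the other adaptors, Grb2, the partner of phosphorylated Shc proteins, had a normalized count of 1092 ± 124 against 814 ± 53.9, a log2 difference of 0.42 ± 0.09 (SE) with an adjusted p of 0.0104 by edgeR. With TMM Grb2 was at 0.13 and lost its call (adjusted p = 0.507 from edgeR). Frs2, the docking protein of fibroblast growth factor receptors, had a log2FoldChange of -0.26 (adjusted p = 0.0726 from edgeR) and was not called, but with TMM it was at -0.54 and called lower (adjusted p = 0.00357 from edgeR). The exchange factors in the table, Rapgef1 (-0.27) and Rasgrp3 (-0.33), were both called lower, beside 20.5% of all tested genes. Rasgrp3 kept its call in 2 of 10 fits that left out 1 rat. Of 5 receptor tyrosine kinases in the table, 2 were called lower and 0 higher, beside 20.5% and 52.3% of all tested genes. The lower ones were Pdgfrb (-0.87 ± 0.18) and Fgfr4 (-0.52 ± 0.12). Met and Epha2 had log2FoldChanges of -1.32 ± 0.55 and 0.81 ± 0.29 without a call. With TMM Insr, the insulin receptor, was called lower too.

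Of the kinases and scaffolds below Ras, 6 of 20 on the list were in the table, and 5 were called higher and 1 lower, beside 52.3% and 20.5% of all tested genes. The lower gene was Rps6ka3, another ribosomal S6 kinase (-0.35 ± 0.08), which kept its call in 10 of 10 fits with 1 rat left out and with TMM. Ppp1ca, which encodes the phosphatase subunit of the complex that M-Ras forms with Shoc2, had a normalized count of 4105 ± 404 against 2704 ± 342, a log2 difference of 0.60 ± 0.11 (SE) with an adjusted p of 0.00608 by edgeR. Mapk3 (ERK1) rose by 0.53, Rps6ka2, a ribosomal S6 kinase that ERK activates, by 0.52 and Map2k2 (MEK2) by 0.43. The fifth higher gene was Mknk2 (0.39), a kinase that ERK activates. With TMM only Ppp1ca of these 5 was called, and Rps6ka2 kept its call in 4 of 10 fits that left out 1 rat. The 3 genes in the table listed as other Ras effectors were called lower, beside 20.5% of all tested genes. They were the regulatory subunits of phosphoinositide 3-kinase Pik3r1 (-0.60) and Pik3r3 (-0.47), and Rgl3 (-0.30), an exchange factor for Ral. Rassf1 (0.39, called higher) and Rassf5 (-0.61, called lower) were not in this role but listed with the GTPase-activating proteins and inhibitors. With 1 rat left out, Pik3r1 kept its call in 10 of 10 fits, Pik3r3 in 6 and Rgl3 in 2.

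Of the GTPase-activating proteins and inhibitors, 9 of 22 on the list were in the table, and 5 were called higher (55.6%) and 2 lower (22.2%), shares near those of all tested genes. The Sprouty genes, feedback inhibitors of receptor tyrosine kinase signalling, had the largest changes of this role. Spry1 had a normalized count of 787 ± 319 against 303 ± 82.1, a log2 difference of 1.38 ± 0.27 (SE) with an adjusted p of 0.00945 by edgeR. Spry2 rose by 0.97 ± 0.25, a call kept in 6 of 10 fits with 1 rat left out, and Spry3 had a log2FoldChange of 1.11 ± 0.35 without a call (adjusted p = 0.0534 from edgeR). Pebp1, the Raf kinase inhibitor protein, rose by 0.79 ± 0.14. With TMM Spry1 and Pebp1 kept their calls and Spry2 lost it (adjusted p = 0.0762 from edgeR).

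Of the genes listed as ERK-responsive transcripts, 7 of 23 were in the table. Of the 7, 5 were called lower and 0 higher, beside 20.5% and 52.3% of all tested genes. The role included Elk1, Elk3 and Elk4, while Spry1 and Spry2, both called higher, were in another role. The counts thus depend on how genes were assigned, and whether these transcripts respond to ERK in the lens was not tested. Ccnd1, which encodes cyclin D1, had a normalized count of 429 ± 165 in the Hypothermia Group and 876 ± 218 in the Normal Group, a log2 difference of -1.03 ± 0.27 (SE) with an adjusted p of 0.0289 by edgeR. Elk3, an ETS factor, was at -0.81 and was called lower, while Etv4 (-1.27 ± 0.44) and Etv1 (-0.86 ± 0.29), also ETS factors, were not called. The other calls were Junb (-0.44), Elk4 (-0.31) and Elk1 (-0.30). Dusp6, the ERK phosphatase whose transcription ERK induces, fell by 1.61 ± 0.39 (SE) on the log2 scale, with an adjusted p of 0.0195 by edgeR, from 101 ± 37.8 to 33.2 ± 19.3. Dusp8, a phosphatase of the JNK and p38 kinases, rose by 1.25 ± 0.34. Single rats decided several of these calls: of the 10 fits that left out 1 rat, Elk3 and Junb kept their calls in 2, Elk1 in 3, Ccnd1 and Dusp8 in 4, Elk4 in 6 and Dusp6 in 7. With TMM Etv4 and Etv1 were called lower as well (adjusted p = 0.0436 and 0.0184 from edgeR), and Dusp8 lost its call (adjusted p = 0.0857 from edgeR).

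**Figure D5:**
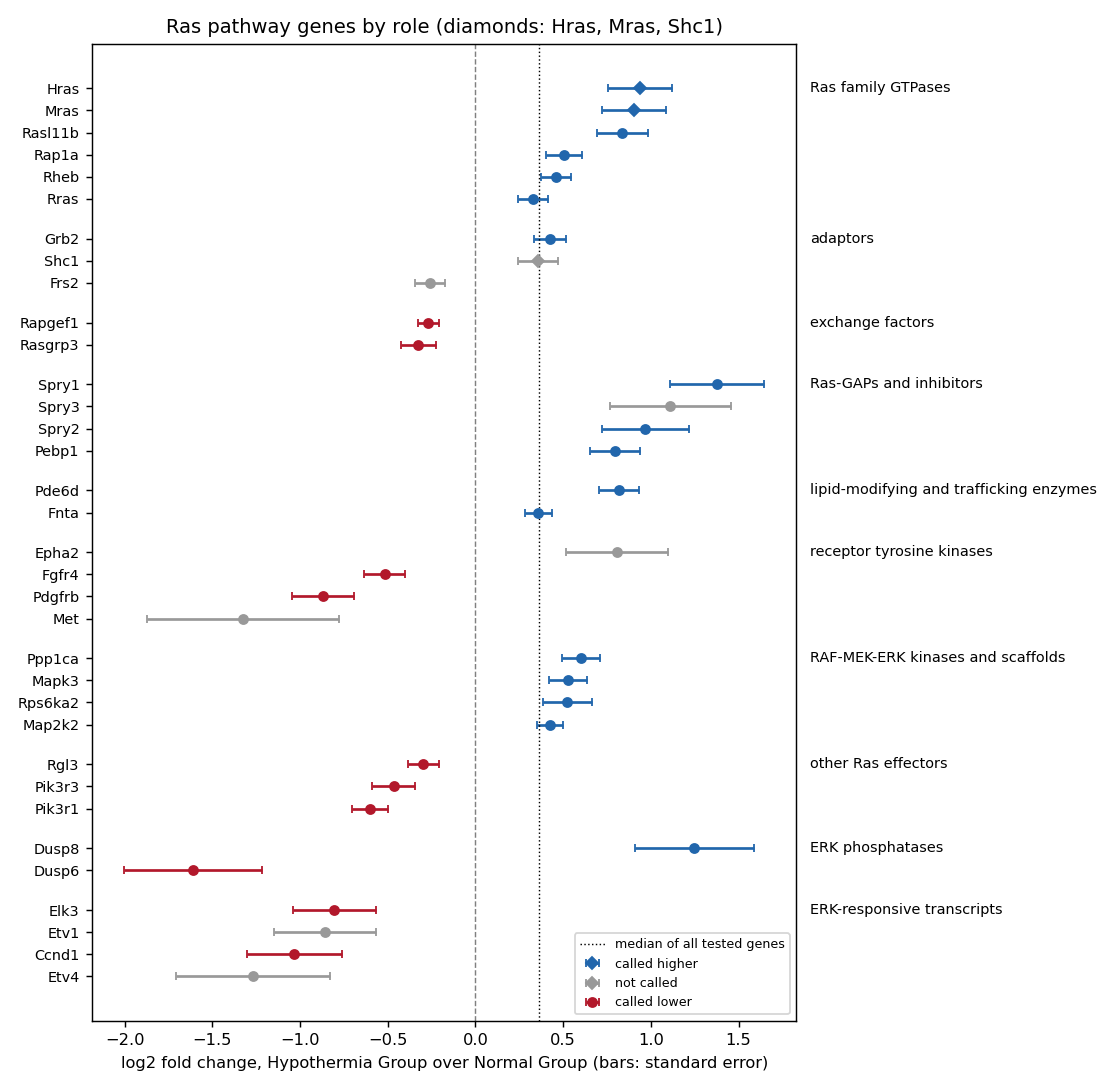
Log2 fold change (horizontal axis, bars are the standard error) of Hras, Mras and Shc1 (diamonds) and of 31 other Ras pathway genes (circles), grouped by role and coloured by call from edgeR. The GTPases, the Raf-MEK-ERK genes shown and the Sprouty genes lie on the higher side and the ERK-responsive transcripts shown, exchange factors and phosphoinositide 3-kinase subunits on the lower side of zero, and the dotted line marks the median of all tested genes at 0.36.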

How the data were processed

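The authors removed reads with adapters, poly-N or low quality, used HISAT2 2.0.5 for alignment of read pairs to Rnor_6.0, and featureCounts 1.5.0-p3 for counting. The deposited counts are whole reads per gene without normalization, and the deposited FPKM values scale them by gene length and by the authors' size factors. The 2 columns of group means hold the authors' mean normalized counts (a signal), made with DESeq2 1.16.1. The columns of fold changes and p-values hold the authors' own comparison and were not used. The annotation release is not given in the sources used here, and RNA with a RIN of at least 5.8 was sequenced.

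The authors' size factors were recovered from their group means by least squares. The test was edgeR's (version 4.0.16, R 4.3.3), run on all 10 samples with group as the factor (glmQLFit, robust, and glmQLFTest, after filterByExpr). P-values were adjusted by Benjamini-Hochberg as for 17000 genes, a round number near that of expressed genes, because the table lists selected genes. Ratios of genes were compared by exact permutation tests with 0.5 added to each count, and their 95% intervals were found by inverting the test. A pseudocount of 1 preceded the log2 of normalized counts. The test was checked on simulated counts of 3334 genes, 200 of them raised or lowered by 1 on the log2 scale. It called 95% of these 200, and 10 unchanged genes. This check adjusted over the tested genes, used the same dispersion for all genes and left most genes unchanged. It therefore does not give the recovery under the 17000-gene adjustment in this table of selected genes. The members and gene lists were chosen with earlier results of these data known. Pathway genes were named as the 4 with the largest fold change in each role. Promoter windows were taken from RefSeq (GRCr8). Figures were drawn with matplotlib 3.10.9. The alternatives were DESeq2 1.42.0, other scalings and adjustments, no filter, a replicate block and each rat left out.

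Same-numbered rats are different animals, and intervals cover these 10 rats only.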

Additional observations from a re-analysis of the deposited data

Results flagged for a closer look

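Hypothermia replicate 5 stood apart from its group for 3 genes, its gap to the next rat being more than 0.71 of the range of the 5 rats. Its normalized count was 1831 for Shc1 (next rat 1387), 1333 for Spry1 (next rat 752) and 1024 for Fnta (next rat 894). These 3 values share the size factor of this rat, 0.744, the lowest of all. Before division by it the Shc1 reads of this rat were 1363, against 1273 in Hypothermia replicate 4. In 74 groups of 5 values, about 1 in 20 would be set apart in this way by chance.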

How the results depend on the processing

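Hras and Mras were called higher in 17 of the 19 alternatives run for each, most of which kept the authors' size factors. Of the other scalings, Hras and Mras kept their calls with TMM and with median-of-ratios factors. With the totals of the listed genes they turned to -0.29 and -0.31, and with those totals without the lens fibre markers they were at 0.11 (Hras) and 0.080 (Mras) and not called. Shc1 turned to -0.89 and -0.48 under these 2 scalings, and was called higher with DESeq2 (0.36, adjusted p = 0.0249), with adjustment over the tested genes (0.36, adjusted p = 0.0105 from edgeR) and in 2 fits that left out 1 rat (range 0.25 to 0.41). Over the alternatives with all rats its adjusted p ranged from 0.000794 to 1 (edgeR and DESeq2). The median of all tested genes was -0.46 with the totals without fibre markers and -0.87 with the totals.

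Over all genes, 633 were called higher and 1100 lower with TMM, 601 and 1101 with median-of-ratios factors, 57 and 2398 with the totals, 112 and 1652 with the totals without fibre markers, and 927 and 1167 with TMM and adjustment over the tested genes, a pair of choices added after seeing the data. Adjustment over the tested genes alone gave 1169 lower. Leaving out 1 rat gave between 1077 and 1720 higher and between 300 and 664 lower. Of the 43 Ras pathway genes, 5 were called higher with TMM and with median-of-ratios factors, 8 with TMM and adjustment over the tested genes, and 0 with either total (edgeR, with 0 and 1 at an unadjusted p under 0.05, against 21 with DESeq2 on the authors' size factors), while 35 and 26 were called lower with the totals. Leaving out 1 rat gave between 6 and 15 lower.

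The replicate numbers do not pair the rats: the correlation of same-numbered rats' deviations was between -0.17 and 0.23, and 0 of 5 matched their own number best. With the replicate number as a block, Hras and Mras kept their calls, 809 genes were called higher and 134 lower, 3 Ras pathway genes were called lower, and the Hras to Shc1 and Mras to Shc1 ratios differed by 0.60 and 0.56 with p = 0.0625 in an exact sign-flip permutation test, the smallest it can give. The Hras to Mras ratio ranged from -0.057 (without Hypothermia replicate 5) to 0.10 with 1 rat left out.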
